A study of Mus musculus with 9 samples.

Results

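The genes described here encode the proteins of the cytosolic ribosome, the particle that translates nuclear messenger RNAs. They were taken by name and annotated class, without regard to their values, as the protein-coding rows of the deposited gene table whose symbol is Rpl or Rps with a number (with an a, x, y or l ending where there is one), or Rpsa, Rplp0, Rplp1 or Rplp2. The kinases of the Rps6k family were left out. This gave 82 genes of the 54532 rows, 50 of the large and 32 of the small subunit. They lie on 19 chromosomes, and 78 of them, 46 large and 32 small, reached 1 FPKM in 3 or more libraries and were tested among 13883 genes. The other 4 were Rpl3l, Rpl10l, Rpl39l and Rpl36al.

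The study sequenced RNA from whole aortas of Apoe-/- mice, which lack apolipoprotein E, a ligand for the uptake of lipoprotein remnants, and develop plaques in the arterial wall. Iron was given to 1 group, HFD_IO, as ammonium iron(III) citrate injected into the peritoneal cavity beside a high fat diet. The HFD group had that diet without the injections, and the CD group had chow. All mice carried the Apoe deletion, were 6 to 8 weeks old at the start and were kept on their regimen for 24 weeks, with 3 libraries in each group. The labels give no vehicle injection and no Apoe-positive mice, so the injection and the iron cannot be told apart. Each table column carries its group and its own numbering, which is absent from the sample labels, so libraries are called by their column names. Nothing in the labels says that each library was 1 animal, and p-values measure the spread between these libraries.

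A mammalian cytosolic ribosome joins a large subunit, which holds the peptidyl transferase centre, to a small subunit, which reads the codons. Most ribosomal proteins are present in a single copy per particle, and their genes are expressed in nearly all cells at high levels. Their messenger RNAs begin with a cytosine followed by a run of pyrimidines, the terminal oligopyrimidine tract, through which mTORC1 and the protein LARP1 govern their translation and stability. Many ribosomal protein messages have left processed copies in the genome, and most of these are not translated. In a bulk sample, fewer cells of a type and less RNA per cell cannot be told apart.

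The 5′ end of a ribosomal protein message is set by its promoter, and 4 starts are shown because their genes carry results below. Rpl35 had the lowest adjusted p among the members in HFD_IO against HFD and in HFD against CD. Rpl11 changed in the same comparisons, Rpl37 has a transcribed copy elsewhere in the genome, and Rpl24 was listed far below most other members. Each line runs 5′ to 3′ on the gene's strand from 45 bases before to 15 bases from the RefSeq transcript start onwards, in GRCm38.p6. The stretches are chr2:39005117-39005176 on the minus strand for Rpl35, chr4:136053379-136053438 on the minus strand for Rpl11, chr15:5116568-5116627 on the plus strand for Rpl37 and chr16:55966230-55966289 on the plus strand for Rpl24. The first transcribed base by RefSeq is a cytosine for Rpl35, an adenine for Rpl11 and Rpl37 and a guanine for Rpl24. The RefSeq starts of Rpl11, Rpl37 and Rpl24 thus do not open with the tract described above. Whether they are the starts used in the aorta was not tested. Capitals mark CTTTC, a cytosine followed by pyrimidines, and CCGGAAG, which holds the GGAA core that ETS factors bind.
Rpl35: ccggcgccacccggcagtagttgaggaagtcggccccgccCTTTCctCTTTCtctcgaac
Rpl11: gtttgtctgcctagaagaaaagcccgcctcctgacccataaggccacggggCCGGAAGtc
Rpl37: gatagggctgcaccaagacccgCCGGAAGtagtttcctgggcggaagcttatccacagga
Rpl24: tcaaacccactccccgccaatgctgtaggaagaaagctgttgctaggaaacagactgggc

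RefSeq promoters, 250 bases before to 50 after the start, matched 62 of the 82 members, with 74 entries. CCGGAAG, searched on both strands, was in the promoters of 26 of the 62 members (41.9%) and of 9.93% of 27025 genes. CTTTC on the transcribed strand between 15 bases before and 20 bases after the start was found for 17 of the 62 members (27.4%) and 5.51% of genes. TATAAA, the TATA box letters, searched on both strands, was found for 6 members (9.68%) and 15.7% of genes. Rpl35 carries CTTTC at its start, Rpl11 and Rpl37 carry CCGGAAG, and the Rpl24 stretch carries neither string of letters.

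The 9 libraries held 16660963 to 18308450 reads in genes. The members took 3.34%, 3.36% and 3.02% in HFD_IO, 4.08%, 4.65% and 4.22% in HFD and 4.78%, 3.25% and 3.43% in CD libraries of them. CD_1 stood apart from the other CD libraries: it was the highest CD library for 70 of the 78 tested members. HFD_1 was the lowest HFD library for 66 members, and HFD_IO_3 was the lowest HFD_IO library for 54. Expressed as the median deviation of the members from their own means over the 9 libraries, on the log2(FPKM + 1) scale, the level was -0.18, -0.13 and -0.27 in HFD_IO_1, HFD_IO_2 and HFD_IO_3. It was 0.14, 0.41 and 0.39 in HFD_1, HFD_2 and HFD_3, and 0.19, -0.27 and -0.20 in CD_1, CD_2 and CD_3. Thus the HFD libraries all lay above the HFD_IO libraries, and CD_1 lay between HFD_1 and HFD_3.

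**Figure D1:**
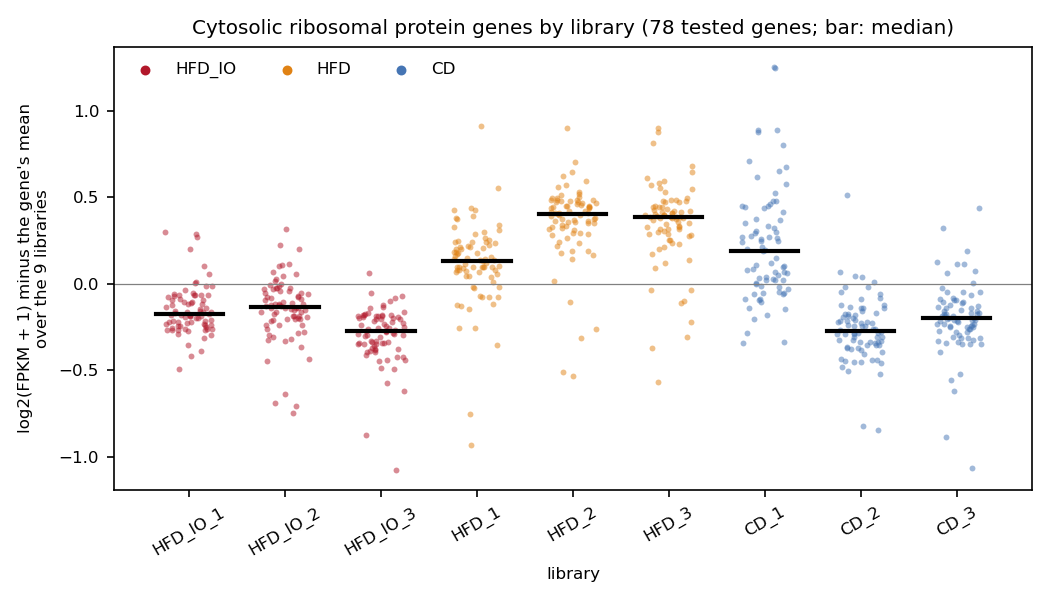
Each point is 1 of the 78 tested ribosomal protein genes, drawn as its log2(FPKM + 1) in a library minus its mean over the 9 libraries, with libraries along the horizontal axis and black bars at the medians. The medians lie at -0.27 to -0.13 in the HFD_IO libraries and at 0.14 to 0.41 in the HFD libraries, while the CD libraries hold 1 at 0.19 (CD_1) and the others at -0.27 and -0.20.

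Tissue markers also differed between libraries. Smooth muscle markers, which define the aortic media, summed to 2385 to 4099 FPKM in HFD_IO, 6777 to 7905 FPKM in HFD and 5251 to 5841 FPKM in CD libraries. Macrophage markers summed to 2536 to 3949 FPKM in HFD_IO, 1358 to 1791 FPKM in HFD and 361 to 401 FPKM in CD. White adipocyte markers summed to 169 to 509 FPKM in HFD_IO, 504 to 1138 FPKM in HFD and 218 to 384 FPKM in CD, and skeletal muscle markers to 4.43 to 14.9 FPKM, 6.40 to 92.4 FPKM and 4.40 to 10.2 FPKM in HFD_IO, HFD and CD. Erythroid markers summed to 2572 to 4150 FPKM in HFD_IO and 8323 to 26098 FPKM in HFD, and to 12373, 6424 and 4677 FPKM in CD_1, CD_2 and CD_3. As for the members, HFD_1 was the lowest HFD library and CD_1 the highest CD library. Brown adipocyte markers summed to 174 to 256 FPKM in HFD_IO, 551 to 1417 FPKM in HFD and 197 to 411 FPKM in CD libraries, also with HFD_1 lowest in HFD and CD_1 highest in CD. Fibroblast markers summed to 975 to 1122 FPKM in HFD_IO, 1346 to 1711 FPKM in HFD and 974 to 1063 FPKM in CD. Endothelial markers summed to 250 to 293, 119 to 231 and 381 to 557 FPKM in the same groups. Cardiac muscle markers summed to 2.30 to 31.9, 3.52 to 13.1 and 5.32 to 12.6 FPKM. White adipocyte and skeletal muscle levels entered the fit as covariates, with the counts given below, and the part of the other markers in the members' values was not tested. Lymphocyte markers summed to 133 FPKM in HFD_2 and to between 6.10 and 21.1 FPKM in the other libraries.

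With iron beside the high fat diet, the ribosomal protein genes lay lower than on the diet alone. In HFD_IO against HFD, 33 of 78 members fell (42.3%) and 0 rose, beside 14.5% of all tested genes lower and 14.1% higher. The fallers were 21 of 46 large subunit and 12 of 32 small subunit members. The median change over the 78 members was -0.50 on the log2(FPKM + 1) scale, with an interquartile range of -0.61 to -0.39, and over all tested genes it was 0.00. Values of HFD_IO and HFD libraries did not overlap for 59 members that were lower (75.6%) and 1 that was higher, beside 24.4% and 24.1% of all tested genes. At an unadjusted p of 0.05, 56 members were lower and 0 higher, beside 21.5% and 20.1% of all genes. The 5 members with a fold change above 0 were Rpl29, Rpl37, Rpl34, Rpl24 and Rps18, of which Rpl34 and Rps18 were named after their values were seen, and none of the 5 passed.

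The count of 33 moved with the scaling and with single libraries, and the median stayed below 0 in each of these. After quantile normalization 7 members were lower (8.97%, beside 12.2% of all genes) and 2 higher (beside 12.7%), with a median of -0.17. After rescaling to TPM 16 were lower (20.5%, beside 8.36%). The count was 13 without HFD_IO_1 (16.7%, beside 8.93% of all genes), 14 without HFD_IO_3 (17.9%, beside 10.3%), 14 without HFD_3 (17.9%, beside 7.76%), 15 without HFD_2 (19.2%, beside 9.98%), 22 without HFD_IO_2 (28.2%, beside 9.38%) and 52 without CD_1 (66.7%, beside 18.4%). The median lay between -0.58 and -0.45 whichever library was left out. With the level of white adipocyte markers as a covariate, 0 members were called lower, beside 2.74% of all genes, and the median was -0.39. With that of skeletal muscle markers 1 was called lower, beside 3.31%, and the median was -0.35.

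Among the large subunit proteins, Rpl35, which sits beside the exit of the nascent peptide tunnel (chromosome 2, 39001580 to 39005624 in the deposited coordinates, GRCm38), had 177, 196 and 171 FPKM in HFD_IO, 274, 326 and 305 FPKM in HFD and 199, 155 and 165 FPKM in CD libraries. Every HFD library was above every other library. The change was -0.73 (SE 0.13, adjusted p = 0.00564) in HFD_IO against HFD. Rpl31, another protein of the tunnel exit, had 215, 209 and 178 FPKM in HFD_IO, 296, 378 and 379 FPKM in HFD and 270.2, 199 and 213 FPKM in CD libraries. The lowest HFD value was HFD_1, and it exceeded all HFD_IO and CD values. Rpl31 changed by -0.80 (SE 0.16, adjusted p = 0.00823).

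Rpl41, the smallest ribosomal protein, had 631, 683 and 469 FPKM in HFD_IO, 970.1, 1008 and 1081 FPKM in HFD and 713, 601 and 576 FPKM in CD libraries, and it changed by -0.80 (SE 0.17, adjusted p = 0.0109). Rpl37a, a zinc-binding protein of the large subunit, had 229, 266 and 233 FPKM in HFD_IO, 374, 408 and 448 FPKM in HFD and 364, 270.4 and 246 FPKM in CD libraries. It changed by -0.75 (SE 0.16, adjusted p = 0.011). For both genes all HFD values exceeded all others. Rpl36 had 636, 675 and 583 FPKM in HFD_IO, 860.03, 998 and 1253 FPKM in HFD and 751, 758 and 710.4 FPKM in CD libraries, a change of -0.70 (SE 0.16, adjusted p = 0.0138), with HFD_3 highest. The calls of Rpl35, Rpl31, Rpl41, Rpl37a and Rpl36 stayed past the threshold whichever library was left out. With the white adipocyte or the skeletal muscle covariate none of these calls passed (adjusted p = 0.0699 to 0.161).

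In the small subunit, Rps29, a zinc-binding protein of the head, had 243, 355 and 244 FPKM in HFD_IO, 463, 427 and 601 FPKM in HFD and 352, 309.6 and 232 FPKM in CD libraries. It had the largest fall past the threshold among the members, -0.83 (SE 0.22, adjusted p = 0.0227), and HFD_3 was its highest library. The call was lost without HFD_IO_1, HFD_IO_3 or HFD_3 (adjusted p = 0.0693 to 0.077). Rps21 had 273, 303 and 292 FPKM in HFD_IO, 415, 456 and 559.7 FPKM in HFD and 465, 320.5 and 249 FPKM in CD libraries, and the groups HFD_IO and HFD did not overlap, while CD_1 lay among the HFD values. Its change of -0.71 (SE 0.22, adjusted p = 0.0401) was lost without any HFD_IO library, HFD_2, HFD_3 or CD_2 (adjusted p = 0.0576 to 0.129).

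**Figure D2:**
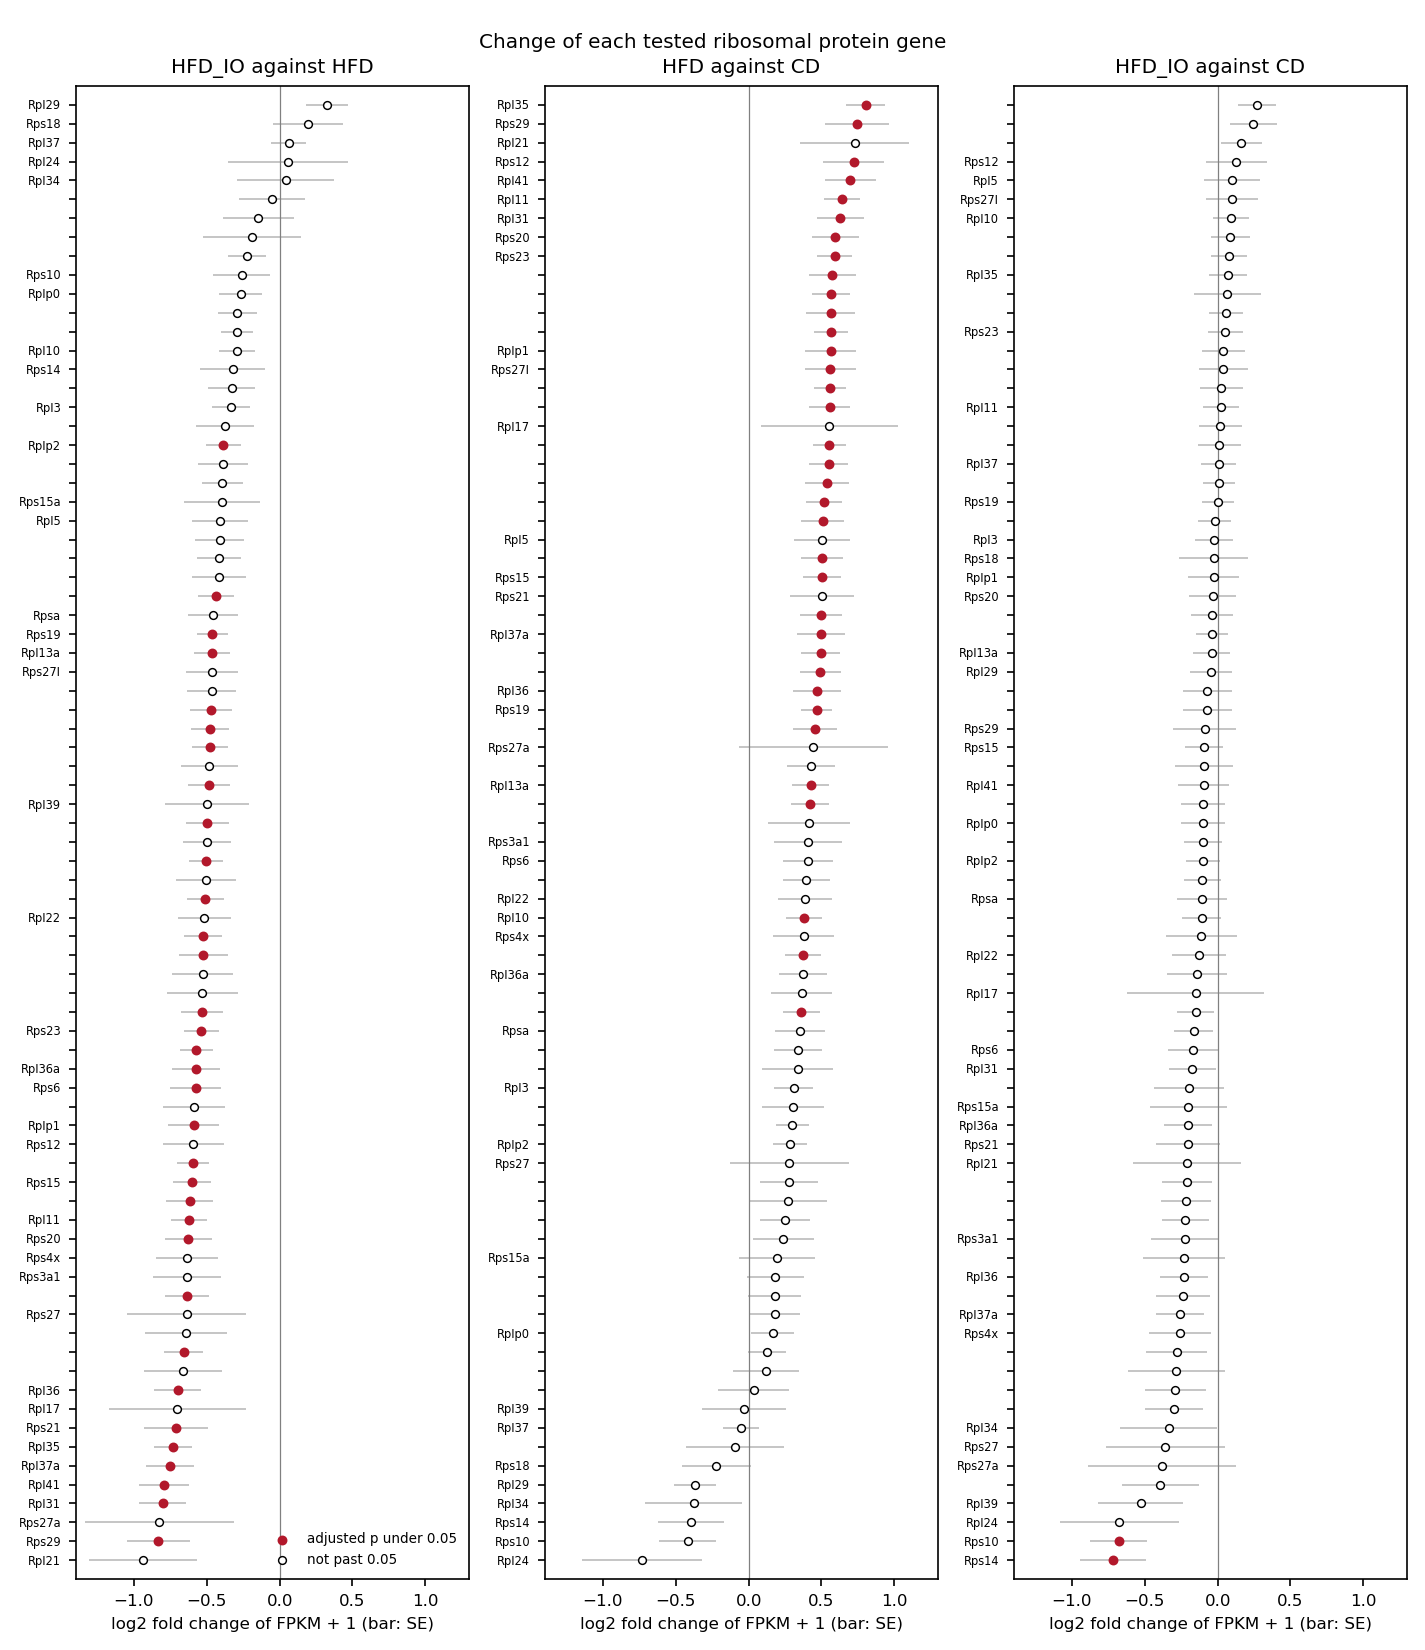
Log2 fold changes of FPKM + 1 (horizontal axis, bars are limma standard errors) are drawn for the 78 tested members in the 3 comparisons, each ordered by size, with names beside the genes described in the text and filled points for an adjusted p under 0.05. In HFD_IO against HFD 33 filled points lie left of 0, in HFD against CD 35 lie right of 0, and in HFD_IO against CD the filled points are Rps14 and Rps10.

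On the high fat diet without iron the ribosomal protein genes lay higher than on chow. In all, 35 of 78 members rose (44.9%) and 0 fell in HFD against CD, beside 21.8% of all tested genes higher and 17.6% lower. They were 21 of 46 large and 14 of 32 small subunit members. The median change was 0.41 log2 units for the members and 0.06 for all tested genes. These calls depended on the scaling of the libraries. After quantile normalization 0 members were higher and 3 lower, beside 16% and 18.2% of all genes, and the median was -0.06. Rescaling to TPM gave 1 higher and 4 lower (5.13%), beside 7.33% and 35.6% of all genes. Plain library totals gave 11 higher (14.1%, beside 13.4% of all genes) and 1 lower (beside 24.2%). HFD and CD values did not overlap for 36 members that were higher (46.2%) and 1, Rps10, that was lower, beside 28.2% and 22.5% of all genes. At an unadjusted p of 0.05, 43 members were higher and 1 lower, beside 27.4% and 21.9% of all genes.

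CD_1 and the other CD libraries acted on this count in opposite directions. Without CD_1, 54 members were called higher (69.2%, beside 24.2% of all genes). Without CD_2 there were 11 (14.1%, beside 15.1%) and without CD_3 12 (15.4%, beside 14.9%), a share close to that of all genes. Without HFD_2 there were 15 (19.2%, beside 16%) and without HFD_3 17 (21.8%, beside 16.5%). The median was 0.31 to 0.56 over these omissions. It was 0.53, with 46 members called higher (59%, beside 21.9% of all genes), when CD_1 and HFD_3 were both left out. With white adipocyte markers as a covariate 1 member was called higher (1.28%, beside 7.9%) at a median of 0.30, and with skeletal muscle markers 0 (beside 6.07%) at a median of 0.24.

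The largest rise past the threshold was that of Rpl35, 0.80 (SE 0.13, adjusted p = 0.00251), and the call held without each library in turn. It was lost after quantile normalization (adjusted p = 0.0606) and with the skeletal muscle covariate (adjusted p = 0.0543). Rpl11, which with Rpl5 and the 5S RNA binds and restrains the p53 ligase Mdm2, had 142, 151 and 134 FPKM in HFD_IO, 193, 223 and 243 FPKM in HFD and 154, 129 and 138 FPKM in CD libraries. Its HFD values all exceeded the others, and it changed by 0.64 (SE 0.12, adjusted p = 0.00466) in HFD against CD and -0.62 (SE 0.12, adjusted p = 0.00801) in HFD_IO against HFD. Both calls held without each library. The rise of Rpl11 was lost after rescaling to TPM (adjusted p = 0.0854) and quantile normalization (adjusted p = 0.294). Its fall was lost after quantile normalization (adjusted p = 0.0695). With either marker covariate neither change of Rpl11 passed (adjusted p = 0.0633 to 0.105). Its partner Rpl5 had 145, 156 and 126 FPKM in HFD_IO, 157, 214 and 199 FPKM in HFD and 174, 111 and 119.8 FPKM in CD libraries, with CD_1 above HFD_1. Rpl5 passed in neither comparison, 0.51 (SE 0.19, adjusted p = 0.0626) in HFD against CD and -0.41 (SE 0.19, adjusted p = 0.14) in HFD_IO against HFD.

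Rps23, a protein of the decoding centre, had 347, 399.8 and 358 FPKM in HFD_IO, 492, 543 and 571 FPKM in HFD and 357, 355 and 351 FPKM in CD libraries. The CD values were close together and below every HFD value, and the change was 0.59 (SE 0.12, adjusted p = 0.00557) in HFD against CD and -0.54 (SE 0.12, adjusted p = 0.0117) in HFD_IO against HFD. Rps19, the gene most often mutated in human Diamond-Blackfan anaemia, had 79.3, 87.7 and 80.9 FPKM in HFD_IO, 104, 119.6 and 119 FPKM in HFD and 90.1, 77.5 and 79.997 FPKM in CD libraries, with changes of 0.47 (SE 0.11, adjusted p = 0.0096) in HFD against CD and -0.46 (SE 0.11, adjusted p = 0.0137) in HFD_IO against HFD. The first call held without each library, and the second was lost without HFD_IO_1 (adjusted p = 0.0504). After rescaling to TPM neither Rps19 call passed (adjusted p = 0.573 and 0.0537), nor after quantile normalization (adjusted p = 0.901 and 0.284). Rps20, of the small subunit head, had 106, 115 and 108 FPKM in HFD_IO, 159.5, 177 and 176 FPKM in HFD and 147, 93.999 and 103 FPKM in CD libraries, with CD_1 well above CD_2 and CD_3. It changed by 0.59 (SE 0.16, adjusted p = 0.0187) in HFD against CD and -0.63 (SE 0.16, adjusted p = 0.0205) in HFD_IO against HFD. The first was lost without HFD_2, HFD_3, CD_2 or CD_3 (adjusted p = 0.0516 to 0.0699), and the second without HFD_IO_1, HFD_IO_3, HFD_2 or HFD_3 (adjusted p = 0.0542 to 0.0636).

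Rps29 changed in HFD against CD by 0.74 (SE 0.22, adjusted p = 0.0261), Rpl41 by 0.70 (SE 0.17, adjusted p = 0.0129) and Rpl31 by 0.63 (SE 0.16, adjusted p = 0.0152). The call of Rps29 was lost without HFD_3, CD_2 or CD_3 (adjusted p = 0.0578 to 0.0963), that of Rpl41 without CD_3 (adjusted p = 0.0531) and that of Rpl31 without HFD_2, CD_2 or CD_3 (adjusted p = 0.0555 to 0.0599). Rps12, a small subunit protein, had 106, 125 and 112 FPKM in HFD_IO, 166, 175 and 178 FPKM in HFD and 154, 89.6 and 82.5 FPKM in CD libraries, with CD_1 almost level with the HFD libraries. Its rise of 0.72 (SE 0.21, adjusted p = 0.0254) was lost without HFD_2, HFD_3, CD_2 or CD_3 (adjusted p = 0.065 to 0.0918). Of the reads of Rps12 and its copies 40.5% lay in copies, and with them added the change was 0.45 (SE 0.23, adjusted p = 0.152), which did not pass.

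With iron beside the high fat diet against chow few members passed the test on the deposited scale. In HFD_IO against CD, of 78 members 2 fell (2.56%) and 0 rose, beside 15% of all tested genes lower and 17.5% higher. The median change was -0.10 for the members and -0.01 for all tested genes. After rescaling to TPM 17 were lower (21.8%, beside 27.4% of all genes) and the median was -0.34. HFD_IO and CD values did not overlap for 4 members that were lower (5.13%) and 1 that was higher, beside 22.7% and 24.3% of all genes. At an unadjusted p of 0.05, 2 were lower and 0 higher, beside 21% and 21.9% of all genes. Over the 3 groups together, the moderated F test called 39 of 78 members (50%), beside 52.1% of all tested genes.

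The first faller, Rps14, a small subunit protein whose human gene is lost in the 5q deletion syndrome, had 607, 554 and 527 FPKM in HFD_IO, 599, 869 and 666 FPKM in HFD and 1248, 707 and 893 FPKM in CD libraries. CD_1 was far above the rest, and all HFD_IO values were below all CD values. The change was -0.72 (SE 0.23, adjusted p = 0.0371), and it was -0.50 (adjusted p = 0.079) without CD_1. The call was lost without any HFD_IO library, CD_1 or CD_3 (adjusted p = 0.0648 to 0.098). The other faller, Rps10, was listed at 1.498, 0.472 and 0.956 FPKM in HFD_IO, 1.29, 1.42 and 1.22 FPKM in HFD and 2.28, 2.43 and 1.62 FPKM in CD libraries. Its change was -0.68 (SE 0.20, adjusted p = 0.0261), from 19 to 99 reads per library, and it was lost without HFD_IO_2, HFD_IO_3, CD_1 or CD_2 (adjusted p = 0.0597 to 0.0892). With the reads of its named copies added, the change of Rps10 was 8e-04 (adjusted p = 0.998).

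The stalk of the large subunit, which recruits the translation factors, is built from Rplp0, Rplp1 and Rplp2. Rplp1 had the highest mean FPKM of the 82 members, 2291, 2330.3 and 2160.1 FPKM in HFD_IO, 3299, 3739 and 3186 FPKM in HFD and 2730.3, 2053 and 2175 FPKM in CD libraries. The HFD values all exceeded the others. Rplp1 changed by -0.59 (SE 0.18, adjusted p = 0.035) in HFD_IO against HFD and 0.56 (SE 0.18, adjusted p = 0.0321) in HFD against CD. The first call was lost without any HFD_IO library, any HFD library or CD_3 (adjusted p = 0.0582 to 0.114), and the second without HFD_IO_1, HFD_1, HFD_2, CD_2 or CD_3 (adjusted p = 0.0515 to 0.114).

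Rplp2 had 166, 192 and 177 FPKM in HFD_IO, 213, 227 and 260.1 FPKM in HFD and 199, 181 and 193 FPKM in CD libraries, with a change of -0.39 (SE 0.12, adjusted p = 0.0383) in HFD_IO against HFD. It was lost without any HFD_IO library, HFD_2, HFD_3, CD_2 or CD_3 (adjusted p = 0.0566 to 0.124), and in HFD against CD Rplp2 gave 0.28 (SE 0.12, adjusted p = 0.0839). Rplp0, the base of the stalk, had 729.5, 735 and 673 FPKM in HFD_IO, 735, 952 and 898 FPKM in HFD and 843, 734 and 719 FPKM in CD libraries. HFD_1 lay within the HFD_IO and CD values, and Rplp0 passed in no comparison, with -0.27 (SE 0.15, adjusted p = 0.205) in HFD_IO against HFD. The 3 stalk genes were therefore called differently at changes of the same sign, and their differences from each other were not tested.

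Several members have roles off the ribosome or as targets of signalling. Rps6, the substrate of the S6 kinases, had 342, 358 and 311 FPKM in HFD_IO, 428, 560.004 and 529 FPKM in HFD and 473, 332 and 344 FPKM in CD libraries. It changed by -0.58 (SE 0.17, adjusted p = 0.0354) in HFD_IO against HFD, a call lost without any HFD_IO library, HFD_2, HFD_3 or CD_3 (adjusted p = 0.0503 to 0.112). Rps6 gave 0.41 (SE 0.17, adjusted p = 0.089) in HFD against CD, with CD_1 above HFD_1. Rpl13a, known in humans as a part of the interferon gamma-activated inhibitor of translation, was listed at 9.31, 8.60 and 9.35 FPKM in HFD_IO, 11.9, 14.7 and 12.3 FPKM in HFD and 10.6, 7.78 and 9.98 FPKM in CD libraries. It changed by -0.47 (SE 0.13, adjusted p = 0.0245) in HFD_IO against HFD and 0.42 (SE 0.13, adjusted p = 0.0261) in HFD against CD. The first call was lost without any HFD_IO library, HFD_2 or HFD_3 (adjusted p = 0.0529 to 0.0807), and the second without HFD_2 or CD_2 (adjusted p = 0.0861 to 0.0923). The listed level of Rpl13a was far below that of most other members. Rpl13a held 3498 reads over the 9 libraries and its 1 named copy held 1 read, and copies under other names were not counted.

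Rpsa, which also serves as a laminin receptor, had 288, 298 and 265 FPKM in HFD_IO, 344, 433 and 394 FPKM in HFD and 392, 265 and 273 FPKM in CD libraries, with CD_1 level with HFD_3. It gave -0.46 (SE 0.17, adjusted p = 0.0768) in HFD_IO against HFD and 0.35 (SE 0.17, adjusted p = 0.135) in HFD against CD, and neither passed. Rpl3, of the peptidyl transferase region, had 207, 230.1 and 204 FPKM in HFD_IO, 239.7, 295 and 277 FPKM in HFD and 247, 199 and 208 FPKM in CD libraries, with -0.33 (SE 0.13, adjusted p = 0.0892) and 0.31 (SE 0.13, adjusted p = 0.0917) in the same comparisons. Rpl10, a late-joining large subunit protein on the X chromosome, had 431, 457 and 444 FPKM in HFD_IO, 490.3, 580.1 and 566 FPKM in HFD and 448, 401 and 403 FPKM in CD libraries, with -0.29 (SE 0.12, adjusted p = 0.105) in HFD_IO against HFD and 0.38 (SE 0.12, adjusted p = 0.0356) in HFD against CD. The call in HFD against CD was lost without HFD_IO_1, HFD_IO_2, HFD_2, HFD_3, CD_2 or CD_3 (adjusted p = 0.0503 to 0.121). Rps27a, translated as a fusion to ubiquitin, spread widely within groups, with 131, 68.1 and 57.7 FPKM in HFD_IO, 157, 159 and 117 FPKM in HFD and 255, 78.4 and 57.3 FPKM in CD libraries.

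Other members named by level or by role had their highest group mean in HFD. Rps15, of the small subunit head, averaged 788 ± 23.1 FPKM in HFD_IO, 1197 ± 89.7 FPKM in HFD and 844 ± 46.8 FPKM in CD (SD, n = 3 each). It changed by -0.60 (SE 0.13, adjusted p = 0.011) in HFD_IO against HFD, held without each library, and by 0.50 (SE 0.13, adjusted p = 0.0157) in HFD against CD, lost without CD_2 or CD_3 (adjusted p = 0.0575 to 0.0635). After quantile normalization neither Rps15 call passed (adjusted p = 0.0612 and 0.972). Rps3a1, next to Rplp1 in mean level, had 859.5, 835 and 795 FPKM in HFD_IO, 1128, 1449 and 1314 FPKM in HFD and 1415, 742 and 872 FPKM in CD libraries. CD_1 lay among the HFD values, and Rps3a1 gave -0.64 (SE 0.23, adjusted p = 0.0708) in HFD_IO against HFD. Rps4x, an X-linked small subunit gene, averaged 407 ± 20.1 FPKM in HFD_IO, 636 ± 87.4 FPKM in HFD and 501 ± 156 FPKM in CD (SD, n = 3 each), with -0.64 (SE 0.21, adjusted p = 0.0512) in HFD_IO against HFD. In HFD against CD Rpl37a changed by 0.50 (SE 0.16, adjusted p = 0.0392) and Rpl36 by 0.47 (SE 0.16, adjusted p = 0.0463). The call of Rpl37a was lost without HFD_IO_1, HFD_IO_3, HFD_2, HFD_3, CD_2 or CD_3 (adjusted p = 0.0528 to 0.142), and that of Rpl36 without any library other than HFD_1 (adjusted p = 0.0569 to 0.133).

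To ask which members moved apart from the rest, the median of the members was subtracted within each library and the fit repeated over all tested genes. On this relative log2 scale 2 members were higher and 0 lower in HFD_IO against HFD, beside 37.4% and 1.98% of all tested genes. In HFD against CD 1 was higher and 3 lower, beside 5.29% and 20.5%, and in HFD_IO against CD 1 was higher and 1 lower, beside 16.3% and 4.37%. Leaving out each library in turn gave 1 to 3 higher and 0 to 1 lower in HFD_IO against HFD. It gave 0 to 3 higher and 1 to 4 lower in HFD against CD, and 0 to 1 in each direction in HFD_IO against CD.

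Rpl29, a large subunit protein named for its affinity to heparin, had 159, 160.2 and 154 FPKM in HFD_IO, 116, 119 and 145 FPKM in HFD and 198, 153 and 143 FPKM in CD libraries. Every HFD library was below every HFD_IO library. Relative to the members' median Rpl29 was higher in HFD_IO against HFD by 0.78 (SE 0.14, adjusted p = 0.00381), which held without each library at an adjusted p of 0.00178 to 0.0212. Its relative change was -0.66 (SE 0.14, adjusted p = 0.0098) in HFD against CD, lost without HFD_2 (adjusted p = 0.0527). On the deposited scale itself Rpl29 gave 0.32 (SE 0.15, adjusted p = 0.126) and -0.37 (SE 0.15, adjusted p = 0.0725), and neither passed. Both passed after rescaling to TPM, at 0.48 (adjusted p = 0.02) and -0.76 (adjusted p = 0.00157). Both also passed after quantile normalization, at 0.65 (adjusted p = 0.00504) and -0.85 (adjusted p = 0.00144). Of 24 alternative settings Rpl29 passed in 6 and 7 in these comparisons.

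Rps14 was lower relative to the members, with a relative change of -0.68 (SE 0.17, adjusted p = 0.0165) in HFD against CD and -0.55 (SE 0.17, adjusted p = 0.042) in HFD_IO against CD. The first was lost without HFD_3 or CD_3 (adjusted p = 0.0586 to 0.0719), and the second without any HFD_IO library, HFD_1, CD_1 or CD_3 (adjusted p = 0.0559 to 0.146). Rpl24, found near the interface between the subunits, was listed at 6.14, 3.34 and 3.35 FPKM in HFD_IO, 2.11, 5.69 and 4.78 FPKM in HFD and 13.1, 3.85 and 7.04 FPKM in CD libraries, from 38 to 248 reads per library. CD_1 was highest and HFD_1 lowest. Its relative change was -1.02 (SE 0.31, adjusted p = 0.0369) in HFD against CD, lost without HFD_1, HFD_3, CD_1 or CD_3 (adjusted p = 0.0686 to 0.107).

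Rpl35 rose beyond the members' median by 0.52 (SE 0.14, adjusted p = 0.0211) in HFD against CD, lost without HFD_2, CD_2 or CD_3 (adjusted p = 0.062 to 0.0847).

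**Figure D3:**
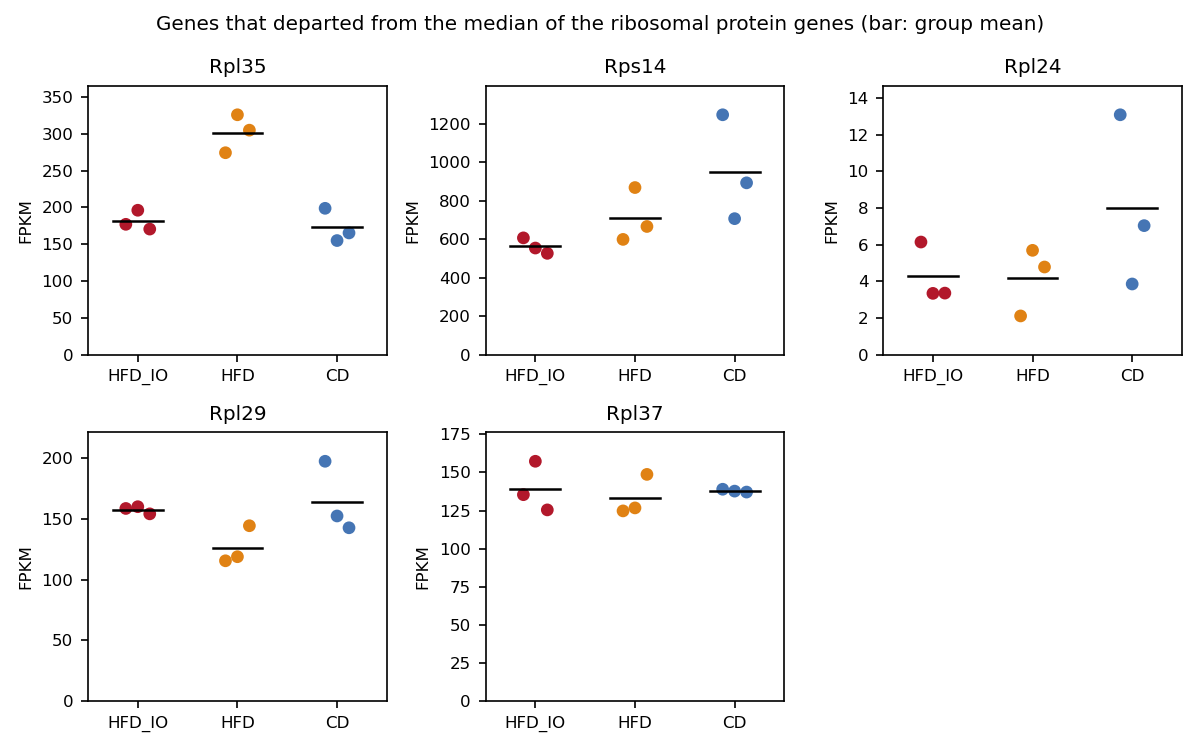
FPKM (vertical axis, from 0) of 5 members that departed from the members' median in at least 1 comparison, with 1 point per library, a bar at the mean of each group of 3 libraries, and the groups HFD_IO, HFD and CD from left to right. Rpl29 lies at 154 to 160.2 in HFD_IO and 116 to 145 in HFD libraries, while Rpl35 lies at 171 to 196 and at 274 to 326 in the same groups.

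Rpl37, a large subunit protein, had 135, 157 and 125 FPKM in HFD_IO, 125, 127 and 149 FPKM in HFD and 139, 138 and 137 FPKM in CD libraries, with all groups overlapping, at 0.06 (SE 0.12, adjusted p = 0.731) in HFD_IO against HFD. Relative to the members' median it stood higher there by 0.52 (SE 0.16, adjusted p = 0.029), lost without HFD_IO_2, HFD_IO_3, HFD_2 or HFD_3 (adjusted p = 0.067 to 0.107). A retrotransposed copy on chromosome 5, Rpl37rt, was listed at 26.2, 34.8 and 28.02 FPKM in HFD_IO, 209.7, 231 and 255 FPKM in HFD and 34.6, 28.2 and 21.2 FPKM in CD libraries. It changed by -2.93 (SE 0.18, adjusted p = 0.000181) in HFD_IO against HFD and by 3.03 (SE 0.18, adjusted p = 5.92e-05) in HFD against CD. With the reads of the gene and the copy added together Rpl37 changed by -0.63 (SE 0.12, adjusted p = 0.00709) in HFD_IO against HFD. The sum changed by 0.65 (SE 0.12, adjusted p = 0.00431) in HFD against CD. Relative to the members' median the sum gave -0.15 (adjusted p = 0.464) in HFD_IO against HFD, which did not pass.

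Reads in the other copies show how far the listed values rest on which locus received a read. The table names 297 copies (symbols ending in -ps or rt) of 60 members, and these held 277891 reads, beside 5970840 reads in the members. Copies carried 3.95% to 4.94% of the reads of members and copies in each library. For 13 members at least 10% of the reads of gene and copies lay in copies, with Rps10 at 98.1%, Rpl17 at 62.8%, Rpl21 at 44.3%, Rps12 at 40.5%, Rps27 at 30.4%, Rpl37 at 23.4% and Rpl34 at 15.2%. Rps10 itself held 539 reads over the 9 libraries, against 27737 in its copies, of which Rps10-ps2 on chromosome 16 held 25670. Copies under other names were not counted, and no source used here says how reads with several equal matches were assigned.

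In some families the split between the loci changed from library to library. Rpl34 had 113, 109 and 94.1 FPKM in HFD_IO, 66.3, 184 and 86.7 FPKM in HFD and 173, 111 and 122 FPKM in CD libraries, low in HFD_1 and HFD_3. Its processed copy Rpl34-ps1 on chromosome 6 had 38.2, 22.2 and 35.4 FPKM in HFD_IO, 523, 76.7 and 641 FPKM in HFD and 51.9, 49.004 and 29.2 FPKM in CD libraries, and was high in those same HFD libraries. Read over both loci at the length of the gene, Rpl34 had 118, 112 and 98.9 FPKM in HFD_IO, 136, 195 and 173 FPKM in HFD and 180.04, 118 and 126 FPKM in CD libraries. The sum changed by -0.60 (SE 0.19, adjusted p = 0.0426) in HFD_IO against HFD, where Rpl34 alone gave 0.04 (SE 0.33, adjusted p = 0.938).

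Rps27, a zinc-binding small subunit protein, had 269, 282 and 127 FPKM in HFD_IO, 313, 296 and 394 FPKM in HFD and 439.6, 151 and 306 FPKM in CD libraries, while 9.43% to 54.1% of the reads of its family lay in copies, nearly all in Rps27rt. Summed over copies it changed by -0.64 (SE 0.29, adjusted p = 0.131) in HFD_IO against HFD. Rpl17 and Rpl21 were not past the threshold alone, and Rpl21 with its copies added changed by -0.78 (SE 0.22, adjusted p = 0.0277) in HFD_IO against HFD and 0.62 (SE 0.22, adjusted p = 0.0491) in HFD against CD. Over all members, adding copies gave 36 called lower in HFD_IO against HFD (46.2%, beside 14.5% of all genes) and 34 called higher in HFD against CD (43.6%, beside 21.8%), so the group counts moved little. Rpl17, Rpl21 and Rpl34 were chosen after their values were seen.

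**Figure D4:**
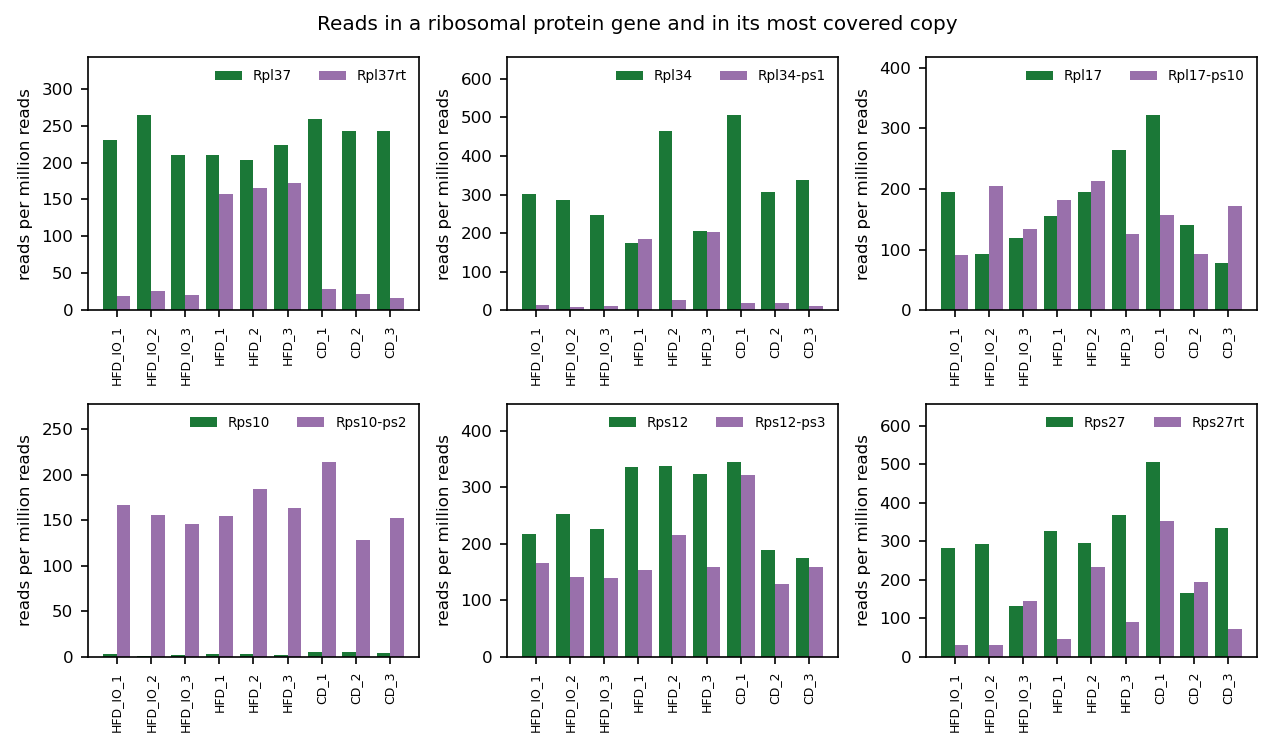
Reads scaled to library size (CPM, vertical axis, from 0) in 6 members (green) and in the copy of each that held the most reads (purple), by library with HFD_IO, HFD and CD from left to right. Rpl37rt is high in the 3 HFD libraries, Rpl34-ps1 is high in HFD_1 and HFD_3 where Rpl34 is low, and nearly all Rps10 reads are in Rps10-ps2.

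Some members are paralogues of other members and were listed with few or no reads. Rpl3l, a striated muscle form of Rpl3, held 1, 3 and 1 reads in HFD_IO, 10, 11 and 5 reads in HFD and 0, 1 and 3 reads in CD libraries. Skeletal muscle markers summed to 5.39, 14.9 and 4.43 FPKM in HFD_IO, 6.40, 92.4 and 58.1 FPKM in HFD and 5.56, 4.40 and 10.2 FPKM in CD libraries, and their part in the Rpl3l reads was not tested. Rpl10l, a testis form of Rpl10, had 0 reads in every library. Rpl39l, a form of Rpl39 known from testis, had 6, 1 and 3 reads in HFD_IO, 1, 0 and 0 in HFD and 7, 2 and 5 in CD libraries. Rpl36al, a retrogene of Rpl36a, had 10, 5 and 7 reads in HFD_IO, 9, 4 and 11 in HFD and 9, 13 and 18 in CD libraries. No source used here says how reads that match both Rpl36al and Rpl36a were assigned. A count of 0 allows up to 3 reads in a library, by counting error alone, and no fold was computed for these 4 genes.

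Their partners Rpl3 and Rpl10, given above, and Rpl39 and Rpl36a were far more abundant. Rps27l and Rpl22, which are not partners of these genes, are given here as well. Rpl39 had 228, 212 and 173 FPKM in HFD_IO, 233, 329.9 and 307 FPKM in HFD and 479, 208 and 253 FPKM in CD libraries, with CD_1 highest, and gave -0.50 (SE 0.29, adjusted p = 0.223) in HFD_IO against HFD. Rpl36a had 86.95, 89.996 and 84.8 FPKM in HFD_IO, 120.3, 135 and 137 FPKM in HFD and 129, 78.6 and 100.02 FPKM in CD libraries. It changed by -0.58 (SE 0.17, adjusted p = 0.0309) in HFD_IO against HFD, lost without any HFD_IO library, HFD_2 or HFD_3 (adjusted p = 0.0692 to 0.0901). Rps27l, a p53-responsive paralogue of Rps27, had 99.1, 98.3 and 88.4 FPKM in HFD_IO, 119, 135 and 142 FPKM in HFD and 119.5, 71.98 and 81.8 FPKM in CD libraries, with CD_1 just above HFD_1. It changed by 0.56 (SE 0.18, adjusted p = 0.0339) in HFD against CD, lost without HFD_2, HFD_3, CD_2 or CD_3 (adjusted p = 0.0886 to 0.117). Rpl22 had 85.9, 86.6 and 74.9 FPKM in HFD_IO, 98.96, 133 and 125 FPKM in HFD and 119, 75.5 and 81.4 FPKM in CD libraries and gave -0.52 (SE 0.18, adjusted p = 0.0648) in HFD_IO against HFD.

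Levels compare between members only as far as the lengths used are the lengths of the messages. The deposited lengths of members ran from 383 to 6270 bases and the coding parts from 138 to 1257 bases, a ratio of 1.22 to 16.1 with a median of 3.75. Rps15a, named after its deposited length of 6270 bases was seen, averaged 48.5 ± 4.79 FPKM in HFD_IO, 64.3 ± 9.39 FPKM in HFD and 59.2 ± 26.5 FPKM in CD (SD, n = 3 each). The mean FPKM of the tested members ran from 1.47 for Rps10 to 2663 for Rplp1, with a median of 231. The level of a member in FPKM is set per base of the deposited length, while a change between groups in the same gene uses 1 length throughout.

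The deposited values follow a scaling of the libraries on the median gene. The median change of all tested genes on that scale was 0.00 in HFD_IO against HFD and 0.06 in HFD against CD. It was -0.01 in HFD_IO against CD. After rescaling to TPM, so that each library sums to the same total, these medians were 0.14, -0.30 and -0.23. In HFD_IO against HFD the members then had a median of -0.34, with 16 lower (20.5%) and 1 higher, beside 8.36% and 17.1% of all genes. Relative to all genes the median was -0.48, close to the -0.50 of the deposited scale. In HFD against CD the median was 0.02, with 1 higher and 4 lower, beside 7.33% and 35.6%, and relative to all genes 0.31, against 0.35 on the deposited scale. In HFD_IO against CD the median was -0.34, with 0 higher and 17 lower (21.8%), beside 11% and 27.4%, and relative to all genes -0.10.

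**Figure D5:**
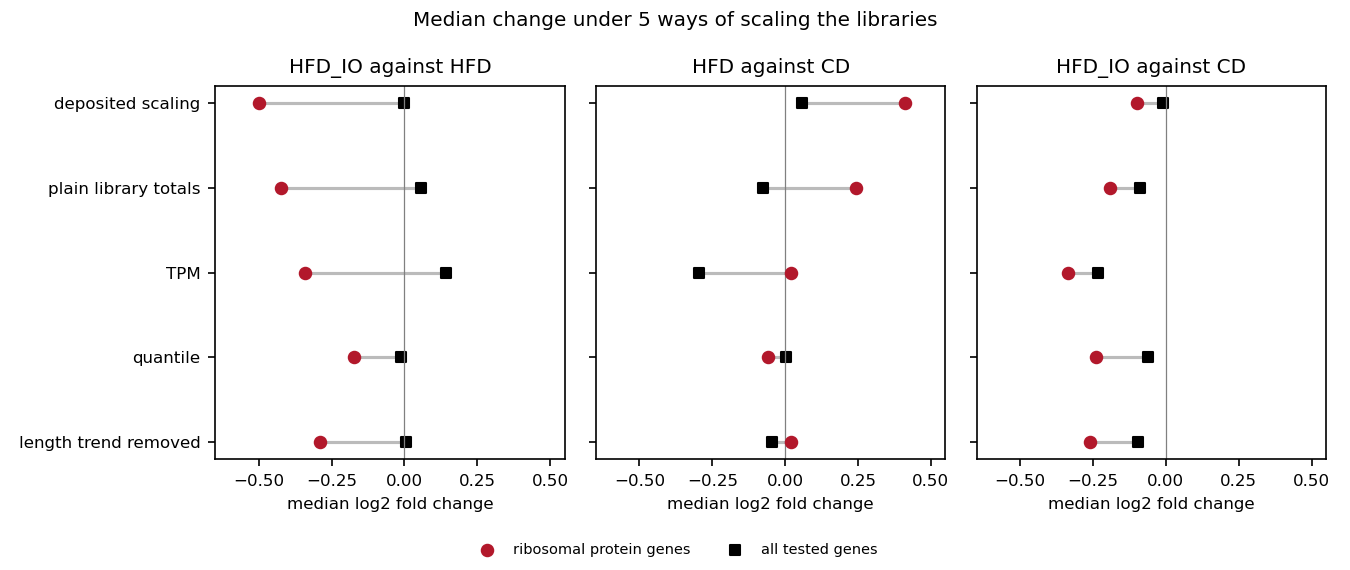
Median log2 fold change (horizontal axis) of the ribosomal protein genes (red circles) and of all tested genes (black squares) under 5 ways of scaling the libraries, in the 3 comparisons. In HFD_IO against HFD the circle lies left of the square throughout, from -0.50 on the deposited scale to -0.17 after quantile normalization; in HFD against CD it lies right of the square except after quantile normalization, where it is at -0.06.

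Changes also followed gene length. Among protein-coding genes the shortest length class (27 to 2385 bases, holding 51 tested members) had a median change of -0.28 in HFD_IO against HFD and 0.41 in HFD against CD. The longest class, which held no member, had 0.19 and -0.21. The 51 members of the shortest class had medians of -0.50 and 0.41 in these comparisons, and the 20 members of the next class -0.50 and 0.39, where all genes of that class had -0.10 and 0.21. After each library's trend on length was removed, the members' median was -0.29 in HFD_IO against HFD, with 14 called lower (17.9%, beside 11.6% of genes). In HFD against CD the median was 0.02, with 7 called higher (8.97%, beside 12.8%) and 5 lower (beside 19.1%).

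Other genes of translation were counted from lists. Of all tested genes 14.1% rose and 14.5% fell in HFD_IO against HFD, and 21.8% and 17.6% in HFD against CD. In HFD_IO against CD 17.5% rose and 15% fell. Of 8 ubiquitin fusion and ribosome-bound genes 4 fell and 0 rose in HFD_IO against HFD (median -0.46), and 2 rose and 1 fell in HFD against CD (median 0.36). Fau, a ubiquitin-like fusion to Rps30, averaged 579 ± 53.9 FPKM in HFD_IO, 772 ± 19.5 FPKM in HFD and 551 ± 40.1 FPKM in CD, with a change of 0.49 (SE 0.13, adjusted p = 0.0171) in HFD against CD. Nacad, of the nascent chain-associated complex family, averaged 4.50 ± 1.296 FPKM in HFD_IO, 7.57 ± 1.29 FPKM in HFD and 11.6 ± 0.993 FPKM in CD, with a change of -1.22 (SE 0.18, adjusted p = 0.000952) in HFD_IO against CD. Of 8 elongation genes 2 fell in HFD_IO against HFD (median -0.31) and 2 rose in HFD against CD (median 0.39). Eif5a, the hypusinated factor that helps peptide bond formation, averaged 192 ± 10.7 FPKM in HFD_IO, 218 ± 8.68 FPKM in HFD and 154 ± 8.27 FPKM in CD, with a change of 0.50 (SE 0.10, adjusted p = 0.00636) in HFD against CD.

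The initiation factors moved in both directions, as did all tested genes. Of 28, 3 rose (10.7%) and 6 fell (21.4%) in HFD_IO against HFD (median -0.16), beside 14.1% and 14.5% of all tested genes. In HFD against CD 9 rose (32.1%) and 2 fell (7.14%), at a median of 0.29, beside 21.8% and 17.6%. In HFD_IO against CD 4 rose (14.3%) and 1 fell (3.57%), at a median of 0.06, beside 17.5% and 15%. Eif4a1, the main helicase of cap-dependent initiation, averaged 84.7 ± 10.3 FPKM in HFD_IO, 80.9 ± 2.09 FPKM in HFD and 45.8 ± 4.90 FPKM in CD, with a change of 0.87 (SE 0.12, adjusted p = 0.000748) in HFD_IO against CD. Its paralogue Eif4a2 averaged 47.96 ± 5.66 FPKM in HFD_IO, 78.2 ± 8.16 FPKM in HFD and 80.8 ± 17.7 FPKM in CD, with a change of -0.69 (SE 0.16, adjusted p = 0.0146) in HFD_IO against HFD. Eif5b, which joins the subunits, averaged 11.8 ± 0.218 FPKM in HFD_IO, 7.07 ± 0.3199 FPKM in HFD and 11.6 ± 1.87 FPKM in CD, with a change of 0.66 (SE 0.11, adjusted p = 0.00396) in HFD_IO against HFD. HFD was its lowest group.

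Of 30 ribosome biogenesis genes 2 rose (6.67%) and 7 fell (23.3%) in HFD_IO against HFD (median -0.15), beside 14.1% and 14.5% of all tested genes. In HFD against CD 6 rose (20%) and 0 fell (median 0.15), beside 21.8% and 17.6%. Nop10, of the pseudouridylation particle, averaged 29.2 ± 2.05 FPKM in HFD_IO, 55.9 ± 10.5 FPKM in HFD and 32.5 ± 5.88 FPKM in CD, with a change of -0.90 (SE 0.17, adjusted p = 0.00584) in HFD_IO against HFD. Its partner Nhp2 averaged 29.96 ± 3.52 FPKM in HFD_IO, 33.4 ± 1.45 FPKM in HFD and 15.8 ± 1.06 FPKM in CD, with a change of 1.04 (SE 0.11, adjusted p = 0.00052) in HFD against CD. Of 12 genes of RNA polymerase I and its factors 0 rose and 4 fell (33.3%) in HFD_IO against HFD (median -0.08). In HFD against CD 3 rose (25%) and 2 fell (16.7%), at a median of -0.04. Taf1a, of the selectivity factor of that polymerase, averaged 6.97 ± 0.862 FPKM in HFD_IO, 11.2 ± 1.55 FPKM in HFD and 11.4 ± 0.847 FPKM in CD, with a change of -0.61 (SE 0.12, adjusted p = 0.00801) in HFD_IO against HFD.

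Among 16 tested genes of mTORC1, the S6 kinases and growth control, 5 rose (31.2%) and 1 fell (6.25%) in HFD_IO against HFD (median 0.27). All tested genes gave 14.1% and 14.5%. In HFD against CD 5 rose (31.2%) and 4 fell (25%), at a median of -0.07, beside 21.8% and 17.6% of all tested genes. Myc, a transcription factor that raises ribosome production, averaged 7.22 ± 0.597 FPKM in HFD_IO, 4.73 ± 0.288 FPKM in HFD and 3.60 ± 0.527 FPKM in CD, with a change of 0.84 (SE 0.11, adjusted p = 0.000518) in HFD_IO against CD. Rps6ka1, the kinase RSK1, averaged 10.4 ± 2.19 FPKM in HFD_IO, 5.46 ± 1.33 FPKM in HFD and 2.92 ± 0.518 FPKM in CD, with a change of 1.53 (SE 0.19, adjusted p = 0.000379) in HFD_IO against CD. Eif4ebp1, the initiation repressor that mTORC1 inactivates, averaged 31.1 ± 3.19 FPKM in HFD_IO, 48.1 ± 15.2 FPKM in HFD and 23.99 ± 3.65 FPKM in CD, with a change of 0.94 (SE 0.20, adjusted p = 0.00736) in HFD against CD.

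The nuclear genes of the mitochondrial ribosome, which translates the mitochondrial messages, were listed after the values had been seen. Of 77 tested 0 rose and 41 fell (53.2%) in HFD_IO against HFD (median -0.44), beside 14.1% and 14.5% of all tested genes. In HFD against CD 45 rose (58.4%) and 1 fell (1.3%), at a median of 0.47, beside 21.8% and 17.6%. In HFD_IO against CD 2 rose (2.6%) and 4 fell (5.19%), at a median of 0.02, beside 17.5% and 15%. Mrpl34 averaged 49.2 ± 3.16 FPKM in HFD_IO, 99.2 ± 31.1 FPKM in HFD and 42.9 ± 2.70 FPKM in CD, with a change of -0.96 (SE 0.19, adjusted p = 0.00718) in HFD_IO against HFD. The part of the brown adipocyte markers given above, of a cell type rich in mitochondria, in these values was not tested.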

How the data were processed

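RNA sequencing of mouse aortas was analysed from 1 deposited gene table of 9 libraries in 3 groups. Its values are FPKM as deposited by the authors, and the submitters' processing notes name HISAT2 and the build hg38, although the gene identifiers and coordinates in the table are mouse and match GRCm38. No source used here names the counting tool or how strand and reads with several matches were treated, so reads of a gene and an overlapping antisense gene cannot be told apart. FPKM times length gave whole reads for 100% of values within 0.05 read. The recovered scaling followed median-of-ratios size factors, with denominators 0.895 to 1.10 times the read sums, and each library held 16660963 to 18308450 reads.

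Genes with at least 1 FPKM in at least 3 libraries were tested on log2(FPKM + 1) with limma 3.58.1 in R 4.3.3 (mean-variance trend, 3 group means), with Benjamini-Hochberg adjustment over 13883 genes and a threshold of 0.05. A fold change on this scale understates the change of low genes. The 3 comparisons share groups and are not independent. Alternatives were other scalings, filters and pseudocounts, marker covariates and the omission of each library. Adding reads of named copies was chosen after seeing the data. The code was tested on simulated data. The genes named were the 8 largest falls in HFD_IO against HFD and rises in HFD against CD among called members, all called in HFD_IO against CD, those departing from the members' median, a fixed set by role, and the 3 highest and lowest, and up to 2 of each other list; exceptions are stated, and a few items are not reported here. The members and lists were chosen with earlier results of these data known. Promoter sequences are from RefSeq, GRCm38.p6.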

Additional observations from a re-analysis of the deposited data

How the results depend on the processing

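Leaving out each library in turn gave 13 (16.7%, beside 8.93% of all genes) to 52 (66.7%, beside 18.4%) members called lower in HFD_IO against HFD. From 0 to 1 were higher there, beside 8.43% to 17.9% of all genes. In HFD against CD 11 (14.1%, beside 15.1%) to 54 (69.2%, beside 24.2%) were higher, and 0 to 1 lower, beside 11.5% to 20.1%. In HFD_IO against CD 0 to 2 were lower, beside 9.17% to 17.4%, and 0 to 2 higher, beside 12.5% to 18.8%. The medians ran from -0.58 to -0.45, from 0.31 to 0.56 and from -0.16 to 0.04 in these comparisons. Relative to the members' median the counts were 1 to 3 higher and 0 to 1 lower, 0 to 3 higher and 1 to 4 lower, and 0 to 1 in each direction. No paired analysis was possible because the labels share no replicate numbers between groups.

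In HFD_IO against HFD, TPM gave 16 lower (20.5%, beside 8.36% of all genes), 1 higher (beside 17.1%) and a median of -0.34. Quantile normalization gave 7 (8.97%, beside 12.2%), 2 (beside 12.7%) and -0.17. Removal of the length trend gave 14 (17.9%, beside 11.6%), 1 (beside 13%) and -0.29. Copies added with TPM gave 18 (23.1%, beside 8.39%), 1 (beside 17.3%) and -0.35. With no filter 13 were lower (16%, beside 4.51%), with the skeletal muscle covariate 1 (beside 3.31%, median -0.35) and with the adipocyte covariate 0 (beside 2.74%). Without CD_1 and HFD_3 together 1 was higher (beside 14%). In HFD against CD, TPM gave 1 higher, 4 lower (beside 7.33% and 35.6%) and 0.0193, quantile normalization 0, 3 (beside 16% and 18.2%) and -0.0599, length 7, 5 (beside 12.8% and 19.1%) and 0.019, and copies with TPM 1, 2 (beside 7.34% and 36%) and 0.0327. Plain library totals gave 11 higher (14.1%, beside 13.4%) and 1 lower (beside 24.2%), no filter 16 higher (19.8%, beside 7.83%) and the fit on the 2 groups compared 21 (26.9%, beside 18.3%). The adipocyte covariate gave 1 (beside 7.9%) and the skeletal muscle covariate 0 (beside 6.07%), while the omission of CD_1 and HFD_3 gave 1 lower (beside 18.4%). In HFD_IO against CD, TPM gave 17 lower (beside 27.4%, median -0.34), copies with TPM 18 (beside 27.5%, -0.34), quantile normalization 6 (beside 19%) and length 4 (beside 20.7%). An FPKM of at least 5 gave 1 (beside 16.2%), as did copies added (beside 15.2%). No filter (beside 6.33%) and the 2 groups alone (beside 13.8%) gave 0. Without CD_1 and HFD_3 there were 2 higher (beside 19.7%) and 0 lower (beside 18.3%). Relative to the members, copies added gave 1 higher and a pseudocount of 0.1 gave 1 lower in HFD_IO against HFD, and centring on the mean gave 0 higher in HFD_IO against CD. The cause was not tested for any of these. The planned count models and TMM scaling were not run, because the deposited values are FPKM.

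For named genes, 2109 of 2517 alternative values stayed on their side of the threshold, 309 lost the call, 86 gained it and 13 reversed. Direction was compared only where the main or the alternative value passed. Changes of sign between values that did not pass are therefore not among the 13. With copies added Rpl37 reversed to -0.63 in HFD_IO against HFD (-0.48 with TPM) and to 0.65 in HFD against CD, and Rps10 to 8e-04 in HFD_IO against CD. In HFD against CD, removal of the length trend gave -0.16 for Rpl36, -0.0653 for Rplp1, -0.0248 for Rps27l and -0.11 for Rps15; quantile normalization gave -0.23 for Rplp1, -0.14 for Rpl10 and -0.0071 for Rps15; and Rpl10 was -0.011 with TPM and -0.019 with copies and TPM.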
